A study of Sus scrofa with 4 samples.

Results

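The 8 genes described here, SOX9, LHX2, TBX1, NFATC1, FOXC1, NFIB, NFIX and RUNX1, encode transcription factors with known roles in the stem cells of the hair follicle bulge. They were chosen by their known roles and taken by gene name from the deposited counts, with earlier results of these data known, and all 8 were found among 29837 named genes. All 8 also passed the filter on low counts that left 15980 genes to be tested.

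The bulge is a pocket of the outer root sheath whose stem cells rest for long periods and then fuel each new round of hair growth. In the mouse, SOX9 and LHX2 maintain the identity of these cells, TBX1 and the nuclear factor I proteins NFIB and NFIX help to keep the population over repeated cycles, NFATC1 and FOXC1 hold it in quiescence, and RUNX1 promotes its entry into growth. Most of these factors also work in other tissues, among them cartilage, blood, heart valves and glands, so that none of them is specific to the follicle.

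The libraries came from juvenile pigs in which H2B-GFP, a fluorescent histone, had been knocked into exon 1 of one LGR5 allele, a receptor gene that potentiates WNT signaling. Every animal carried this reporter, the line was started from edited fetal fibroblasts, grown as colonies, by nuclear transfer, and no pig without the reporter is among these samples. Epidermis and hair were digested with Dispase II and trypsin, and live cells were sorted by GFP signal into a bright population (LGR5-high) and a population without signal (LGR5-negative), while the GFP-low cells were not sequenced. Poly(A) RNA of both populations from 2 pigs, 88R and 95R, gave 4 libraries of 30890232 to 32598670 counts. LGR5-negative held the epidermal and hair cells without GFP signal and is not one cell type. LGR5 itself served as the check of the sort: its level was 132 CPM and 188 CPM in LGR5-high, and 1.26 CPM and 3.61 CPM in LGR5-negative, for pigs 88R and 95R. CPM is the count of a gene relative to the size of its library, after the library sizes had been scaled by the trimmed mean of M-values (TMM). In bulk RNA of this kind, a lower level can mean fewer cells that express a gene or less RNA per cell, and these cannot be told apart.

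Of the 8 transcription factor genes, 6 were higher in LGR5-high at an adjusted p under 0.05 from edgeR's quasi-likelihood test, which was fitted and adjusted over all 15980 genes. Over all tested genes, 22.7% were called higher and 22.0% lower. TBX1, LHX2, SOX9 and RUNX1 rose more than 4-fold, a size that 8.79% of all tested genes reached with a call. FOXC1 and NFIB rose by smaller amounts, and NFATC1 and NFIX did not pass the test. No member was called lower by edgeR, DESeq2 or limma-voom, and 0 members were lower at an unadjusted p under 0.05 in edgeR. The median log2 fold change (LGR5-high minus LGR5-negative) of the 8 genes was 1.81, beside 0.015 for all tested genes. In each of the 6 called genes both LGR5-high libraries lay above both LGR5-negative libraries, an order that 39.2% of all tested genes also showed.

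**Figure D1:**
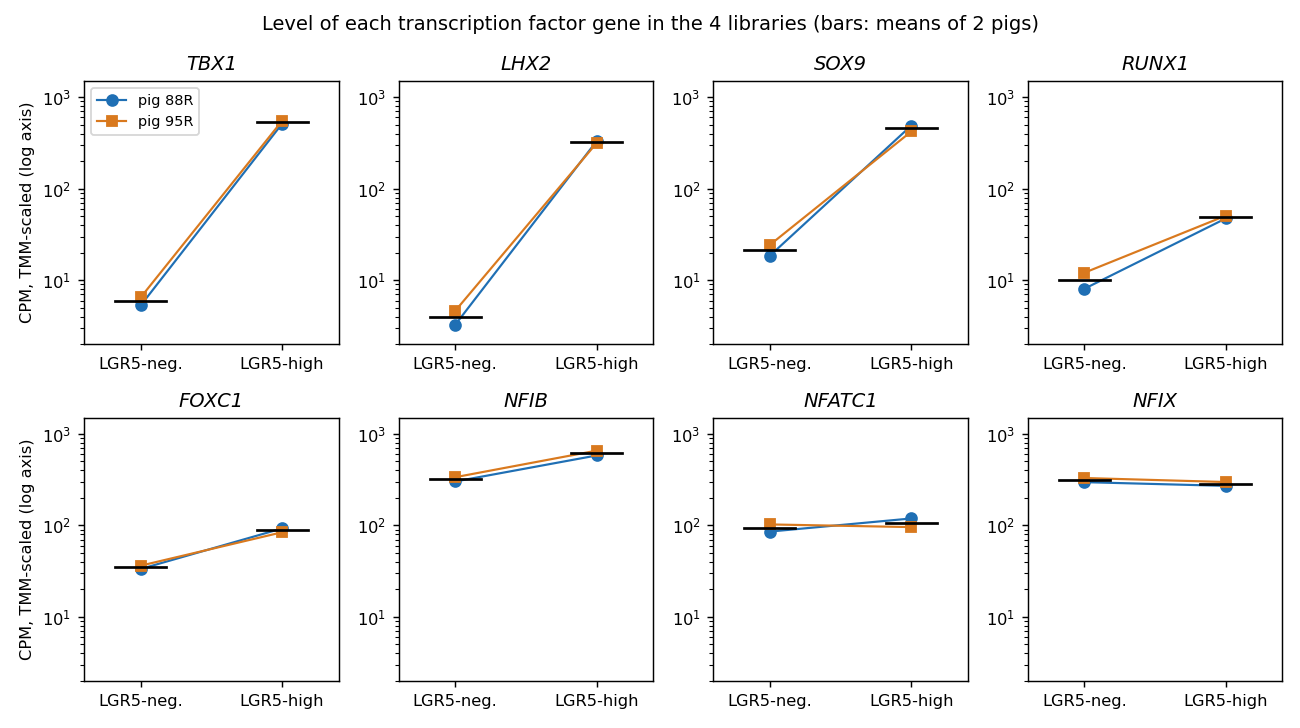
Level of each of the 8 genes in CPM on a log axis, with pig 88R as circles, pig 95R as squares, a line joining the libraries of 1 pig and a black bar for the mean of 2 pigs. TBX1, LHX2 and SOX9 climb steeply from LGR5-negative to LGR5-high in both pigs, the lines of NFATC1 cross, and those of NFIX run almost flat and slightly downward.

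TBX1, a T-box factor that in mouse bulge cells restrains BMP signaling, showed the largest increase of the 8 in the fit over both pigs, although LHX2 was above it in pig 88R. It had 513 CPM in the LGR5-high library of pig 88R and 551 CPM in that of pig 95R, against 5.30 CPM and 6.49 CPM in the LGR5-negative libraries. The underlying counts were 17634 and 18191 in LGR5-high and 151 and 196 in LGR5-negative, so the gene was measured well above the floor in all 4 libraries. The log2 fold change was 6.49 (standard error 0.137, edgeR adjusted p = 3.56e-05), which is a 90.1-fold difference with a 95% interval from 71.2 to 114. Within the pigs the log2 fold change was 6.58 (88R) and 6.39 (95R). Only 90 of the 15980 tested genes had a larger log2 fold change.

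LHX2, a LIM homeodomain factor, had a low but measurable level in LGR5-negative. In LGR5-high its level was 332 CPM (88R) and 316 CPM (95R), against 3.26 CPM and 4.63 CPM in LGR5-negative. The LGR5-negative values rested on 93 and 140 counts. The log2 fold change was 6.35 (standard error 0.175, edgeR adjusted p = 4.09e-05), or 81.8-fold with a 95% interval from 60.6 to 110. The difference was larger in pig 88R (log2 fold change 6.64) than in pig 95R (6.07), and the LGR5-negative level of 95R was 1.42 times that of 88R.

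SOX9, an HMG-box factor that specifies the outer root sheath and the bulge, was measured in LGR5-high at 489 CPM (88R) and 422 CPM (95R). In LGR5-negative it had 18.5 CPM and 24.3 CPM. The gene was therefore clearly detected in both sorted populations, with 527 and 734 counts in LGR5-negative, while the levels of LGR5-high stood far apart from them. The log2 fold change was 4.41 (standard error 0.169, edgeR adjusted p = 6.34e-05), or 21.3-fold with a 95% interval from 15.9 to 28.4. The pigs gave 4.72 (88R) and 4.11 (95R) on the log2 scale.

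RUNX1, the Runt-domain factor that advances the onset of hair growth, was measured at 47.4 CPM and 50.8 CPM in LGR5-high and at 8.07 CPM and 12.1 CPM in LGR5-negative (pigs 88R and 95R). Its log2 fold change was 2.28 (standard error 0.201, edgeR adjusted p = 5.61e-04), a 4.86-fold difference with a 95% interval from 3.45 to 6.86. The LGR5-high libraries differed little from each other, and the LGR5-negative library of pig 95R was 1.50 times that of pig 88R. RUNX1 is also a factor of blood cells. Of 8 tested immune markers 5 were lower in LGR5-high and the other 3 were not called. The summed level of the 10 markers was 7.56 CPM and 12.7 CPM in LGR5-high and 28.4 CPM and 46.6 CPM in LGR5-negative. ITGAM, which was not called (log2 fold change -0.46), differed by pig. It had 5 counts in each library of 88R, and 219 (LGR5-high) and 274 (LGR5-negative) in those of 95R. In LGR5-high of 95R it made up 6.63 CPM of the sum. CSF1R and TYROBP of myeloid cells and CD207 of Langerhans cells were lower, with log2 fold changes of -3.85, -3.68 and -4.11. PTPRC, the pan-leukocyte marker CD45, had 7 and 4 counts in LGR5-high and 55 and 86 in LGR5-negative. The part of blood cells in the level of RUNX1 was not tested.

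FOXC1, a forkhead factor active in resting bulge cells, had 92.6 CPM and 84.2 CPM in LGR5-high, and 33.4 CPM and 36.3 CPM in LGR5-negative. Its log2 fold change of 1.34 (standard error 0.0979, edgeR adjusted p = 3.05e-04) corresponds to 2.54-fold, with a 95% interval from 2.14 to 2.999. The populations did not overlap, and the difference was 2.77-fold for 88R and 2.32-fold for 95R. FOXC1 is also needed in sweat glands. Of 7 tested gland markers, 4 were higher and the other 3 were not called. The 9 markers in the table summed to 358 CPM and 315 CPM in LGR5-high, against 109 CPM and 119 CPM in LGR5-negative. SCD alone made up most of each sum, with 228 CPM and 211 CPM in LGR5-high and 100 CPM and 107 CPM in LGR5-negative. The markers not called were FABP7 (log2 fold change -1.36), KRT18 (-0.59, between 3 and 29 counts) and AWAT2 (0.066). MC5R and PPARG did not pass the filter on low counts. KRT8, a keratin of simple and glandular epithelium, rose with a log2 fold change of 5.70 (edgeR adjusted p = 9.27e-05), and SCD, KRT19 and AQP5 also rose, with 1.08, 3.04 and 2.86. AQP5, the defining marker of sweat glands, lay between 2 and 22 counts, and its call was lost with DESeq2 (adjusted p = 0.0624) and without the LGR5-high library of pig 95R (edgeR adjusted p = 0.0898). The part of gland cells in the level of FOXC1 was not tested.

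NFIB and NFIX belong to the same family and bind the same palindrome, and of these genes only NFIB passed the test. NFIB had 581 CPM and 656 CPM in LGR5-high and 302 CPM and 336 CPM in LGR5-negative, so both LGR5-high libraries lay above both LGR5-negative ones. The log2 fold change of NFIB was 0.95 (standard error 0.103, edgeR adjusted p = 0.00112), or 1.94-fold with a 95% interval from 1.63 to 2.31, and the pigs gave 1.92-fold and 1.95-fold. NFIX had 270 CPM and 298 CPM in LGR5-high and 297 CPM and 329 CPM in LGR5-negative, and its groups overlapped. Its log2 fold change of -0.14 (standard error 0.095, edgeR adjusted p = 0.274) had a 95% interval from -0.38 to 0.094, that is between 0.771-fold and 1.07-fold. Within each pig NFIX was lower in LGR5-high, at 0.911-fold in 88R and 0.904-fold in 95R, and its sign turned when libraries were scaled by their totals alone (0.083, edgeR adjusted p = 0.510). A change of NFIX as large as that of NFIB therefore lies outside its interval, whereas a small change in either direction does not.

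NFATC1, the factor through which calcineurin keeps bulge cells at rest in the mouse, did not differ beyond the spread between the pigs. It had 119 CPM and 95.8 CPM in LGR5-high and 85.6 CPM and 102 CPM in LGR5-negative, for pigs 88R and 95R. The LGR5-high library was the higher one in pig 88R and the lower one in pig 95R. The ratio of LGR5-high to LGR5-negative was 1.39 in 88R (95% interval for counting error alone, Clopper-Pearson, 1.32 to 1.46) and 0.935 in 95R (0.890 to 0.983). With 1 library for each pig and population, a difference between the pigs could not be tested. Over both pigs the log2 fold change of NFATC1 was 0.19 (standard error 0.14, 95% interval from -0.15 to 0.54, edgeR adjusted p = 0.308). It depended on the scaling, and was 0.42 when libraries were scaled by their totals alone (edgeR adjusted p = 0.0586). Over all alternatives it lay between 0.021 and 0.42. NFATC1 is also made by some endothelial cells, and of 8 tested endothelial markers 5 were lower in LGR5-high, 1 (TIE1, 0.99) was higher and 2 were not called. The lower ones included VWF (-2.84), KDR and CLDN5. The calls of TIE1 and CLDN5 were each lost in 3 of the 4 fits without a library, and 3 markers were lower without the LGR5-high library of 88R. The 10 listed markers summed to 11.0 CPM and 12.6 CPM in LGR5-high and to 24.1 CPM and 25.3 CPM in LGR5-negative. CDH5, the endothelial cadherin, had 1 and 1 counts in LGR5-high and 17 and 21 in LGR5-negative. The part of endothelial cells in the level of NFATC1 was not tested.

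**Figure D2:**
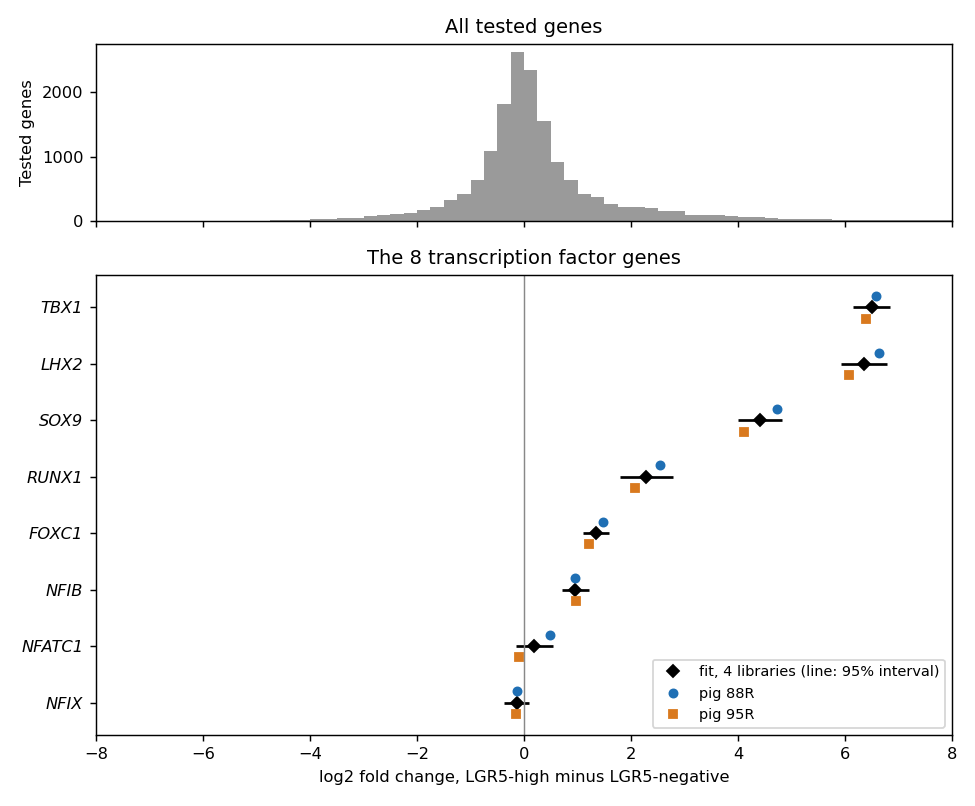
Log2 fold changes (LGR5-high minus LGR5-negative). Top, histogram of all tested genes, apart from 24 genes beyond 8 in either direction. Bottom, the 8 transcription factor genes with the fit over 4 libraries (diamond, line for the 95% interval) and the value within pig 88R (circle) and pig 95R (square). TBX1 and LHX2 lie in the far right tail of all genes, and the lines of NFATC1 and NFIX cross 0.

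Ordered by fold change, the genes fell from TBX1 through LHX2, SOX9, RUNX1, FOXC1 and NFIB to NFATC1 and NFIX. The 95% intervals of TBX1 and LHX2 overlapped, as did those of FOXC1 (1.10 to 1.58 on the log2 scale) and NFIB (0.70 to 1.21), and those of NFATC1 and NFIX. The intervals of SOX9 (3.99 to 4.83) and RUNX1 (1.78 to 2.78) overlapped with those of no neighbour. In TBX1, LHX2, SOX9, RUNX1 and FOXC1 the fold change was larger in pig 88R, and NFIB gave almost the same value in both pigs. LGR5 showed the same order, with a log2 fold change of 6.64 for 88R and 5.68 for 95R.

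The genes nearest to each factor in pattern were sought by the Euclidean distance between centred log2 CPM profiles over the 4 libraries, a likeness that rests on 4 points and 2 animals. TBX1 and LHX2 were among each other's 2 nearest genes, at a distance of 0.231. ST6GAL2, a sialyltransferase, was nearest to TBX1 (0.188), and SLCO4A1, an organic anion transporter, was nearest to SOX9 (0.0826). SDC3 and ECE1 lay nearest to FOXC1 (0.0319 and 0.0390), STK39 and ARHGEF2 to RUNX1 (0.0935 and 0.0996), NPM2 and TRIM45 to NFIB (0.0406 and 0.0513). PDE2A and CPD were nearest to NFATC1 (0.0510 and 0.0513) and AP5M1 and LTN1 to NFIX (0.0121 and 0.0155).

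The closest relatives and binding partners of the 8 factors were read as well. Of 34 such genes, 20 passed the filter on low counts. Of these 10 were lower in LGR5-high, 2 were higher and 8 were not called, beside 22.0% lower and 22.7% higher among all genes. The median log2 fold change of the 20 tested genes was -0.33. With library size only or 1 library left out, fewer were lower, as given below. Every tested SOX gene on the list other than SOX9 was lower. SOX6 had 8.87 CPM and 9.66 CPM in LGR5-high and 105 CPM and 91.7 CPM in LGR5-negative (log2 fold change -3.41, edgeR adjusted p = 5.65e-05), and SOX5 had a log2 fold change of -1.50 (edgeR adjusted p = 4.04e-04). SOX10, a melanocyte and glial factor, had 19 and 23 counts in LGR5-high and 66 and 174 counts in LGR5-negative, with a log2 fold change of -2.69. SOX8, which like SOX10 belongs to the group of SOX9, had a log2 fold change of -0.83 (edgeR adjusted p = 0.0316), a call that was lost without any one of the 4 libraries. SOX10 lost its call without either LGR5-high library (edgeR adjusted p = 0.0598 without that of 88R and 0.0507 without that of 95R).

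Among the other families, RUNX3 fell from 4.28 CPM and 5.72 CPM in LGR5-negative to 0.844 CPM and 0.938 CPM in LGR5-high, opposite to RUNX1 (log2 fold change -2.49, edgeR adjusted p = 0.00138). RUNX2 (-0.77) and CBFB (0.0845), the shared partner of the RUNX proteins, did not pass the test. The nuclear factor I genes NFIA and NFIC had log2 fold changes of -0.33 and -0.33 (edgeR adjusted p = 0.0231 and 0.0338), and both calls were lost with library size only, with upper quartile scaling and in 3 of the 4 fits without a library. NFATC3 was lower as well (-0.46, adjusted p = 0.0106, lost with library size only and without the LGR5-high library of 95R), and NFATC2, NFATC4 and NFAT5 were not called. Of the LHX genes other than LHX2, LHX6 alone passed the filter, with 3 and 6 counts in LGR5-high and 14 and 16 in LGR5-negative, and its call (edgeR adjusted p = 0.0328) was lost without any one library. The LIM cofactor genes moved apart, with LDB2 higher (log2 fold change 0.84, adjusted p = 0.0140, lost without the LGR5-high library of 88R) and LDB1 lower (-0.27, adjusted p = 0.0354, lost without any one library, with library size only, with upper quartile scaling and with the stricter filter). TBX18 was called higher from 22 and 13 counts against 0 and 4 counts (edgeR adjusted p = 0.0490), and lost the call with DESeq2 (adjusted p = 0.118). FOXC2 had 38 and 23 counts in LGR5-high and 26 and 26 in LGR5-negative. When 1 library was left out, the number of lower genes on the list fell from 10 to between 4 and 6, and with library size only it was 5. SOX5, SOX6 and RUNX3 were called lower without each of the 4 libraries in turn.

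**Figure D3:**
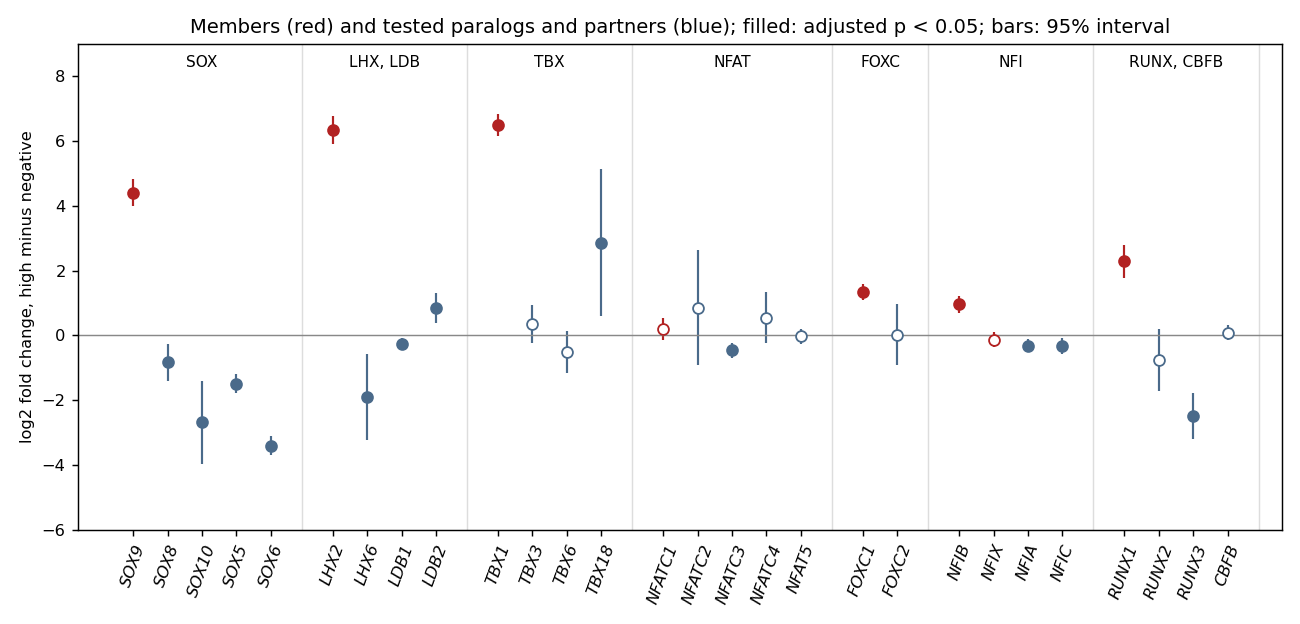
Log2 fold change (LGR5-high minus LGR5-negative, line for the 95% interval) of the 8 members in red and of their tested paralogs and partners in blue, grouped by family, with filled symbols for an adjusted p under 0.05. SOX9, RUNX1 and LHX2 stand above 0 beside SOX6, RUNX3 and LHX6 below it.

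A second list held 17 other transcription factors of follicle stem and progenitor cells. All 17 were tested, and 11 were higher in LGR5-high, 2 were lower and 4 were not called, beside 22.7% higher among all genes. The median log2 fold change was 0.85. FOXE1, a forkhead factor of the follicle, had 80.2 CPM and 79.2 CPM in LGR5-high and 0.561 CPM and 0.298 CPM in LGR5-negative, with a log2 fold change of 7.53 (standard error 0.213, edgeR adjusted p = 4.09e-05). This exceeded the value of TBX1, but rested on only 16 and 9 counts in LGR5-negative. The hedgehog effectors GLI1 and GLI2 rose with log2 fold changes of 5.08 (adjusted p = 4.50e-05) and 3.90 (adjusted p = 2.30e-04), and GLI3, often a repressor, with 0.85. TCF7L1 and TCF7L2, the WNT effectors also called TCF3 and TCF4, rose alike, with 2.80 (standard error 0.125) and 2.73 (standard error 0.185). VDR, the vitamin D receptor, rose by 1.09 and HOXC13, a factor of the hair shaft lineage, by 1.77 on the log2 scale. The lower genes were STAT5A (-1.32, adjusted p = 3.81e-04) and HOPX (-0.83, adjusted p = 0.00395), the latter a marker of bulge stem cells in the mouse. GATA6, STAT3, STAT5B and MSX2 were not called.

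Genes that mouse studies have tied to the 8 factors were read next. Of 16 such genes, 8 were higher, 6 were lower and 2 were not called, beside 22.7% higher and 22.0% lower among all genes. The 8 include LGR5, whose reporter defined the sort. INHBB, an activin subunit tied to SOX9, had 50.6 CPM and 48.0 CPM in LGR5-high and 2.67 CPM and 4.20 CPM in LGR5-negative (log2 fold change 3.84, edgeR adjusted p = 1.57e-04). The ID genes, which report BMP signaling, were split: ID3 rose by 2.07 and ID2 by 1.00 on the log2 scale, while ID1 had -0.71, and the call of ID1 (edgeR adjusted p = 0.0278) was lost without either library of pig 88R. BMP2, a BMP ligand, was lower at 43.7 CPM and 42.0 CPM against 263 CPM and 335 CPM (log2 fold change -2.80, edgeR adjusted p = 1.02e-04). FGF18, a growth factor that maintains follicle rest in the mouse, was higher at 48.0 CPM and 38.2 CPM against 0.912 CPM and 0.430 CPM (log2 fold change 6.01, adjusted p = 1.15e-04).

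Among the remaining genes of this list, CDKN1A, SOCS3, EDN2 and CDK4 are known to be repressed by a member in mouse bulge cells. Their values went in both directions. CDKN1A and SOCS3, which RUNX1 represses there, had log2 fold changes of -1.19 and -1.11 (edgeR adjusted p = 2.94e-04 and 0.00215). EDN2, an endothelin that NFIB restrains, was higher with 2.05 (adjusted p = 0.00196), from 601 and 598 counts in LGR5-high and 154 and 97 in LGR5-negative. CDK4, a cell cycle kinase that NFATC1 represses, had a log2 fold change of 0.27 (adjusted p = 0.0474), which was lost without any one of the 4 libraries and with DESeq2 (adjusted p = 0.0659). The prolactin receptor gene PRLR, also tied to NFATC1, was lower (-1.69, adjusted p = 0.00449), and so was KITLG, the ligand of KIT (-1.78, adjusted p = 1.71e-04). INHBA had 0.55 (adjusted p = 0.0377), a call that was kept in only 1 of the 4 fits without a library. CDH1 and BMP6 were not called, and BMP6 lay between 9 and 19 counts.

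Calcineurin activates NFAT proteins, and a list of 12 genes held its subunits together with regulators and BMP receptor genes. Of these 4 were higher (RCAN2, RCAN3, DYRK2 and ACVRL1), 1 was lower (PPP3CA) and 7 were not called. Among all genes 22.7% were higher and 22.0% lower. The median log2 fold change of the list was 0.028. Because the list is mixed, its counts give no direction of the pathway. PPP3CA, a catalytic subunit of calcineurin, was lower at -0.81 (edgeR adjusted p = 7.22e-04), and PPP3CB (-0.028) and the regulatory subunit gene PPP3R1 (0.0019) were not called. RCAN2 and RCAN3, which encode calcineurin regulators, were higher with 6.19 (adjusted p = 3.86e-04) and 1.54 (adjusted p = 0.00203), and RCAN2 had 463 and 562 counts in LGR5-high and 10 and 2 in LGR5-negative. RCAN1, itself an NFAT target, had 0.56 and was not called (edgeR adjusted p = 0.0925), but was called with the pig as a replicate block (0.57, adjusted p = 2.94e-05). ACVRL1, a receptor gene of the BMP family that was placed on this list, had 12.1 CPM and 13.3 CPM in LGR5-high and 0.667 CPM and 1.09 CPM in LGR5-negative (log2 fold change 3.85, adjusted p = 2.83e-04).

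Transcription factors of epidermal differentiation showed the reverse of the follicle factors. Of 13 genes, 11 were lower in LGR5-high and the other 2, ZNF750 (-0.17) and TFAP2A (-0.092), were not called, beside 22.0% lower among all genes. The median log2 fold change was -1.09. TFAP2C had 68.6 CPM and 60.8 CPM in LGR5-high and 326 CPM and 285 CPM in LGR5-negative (log2 fold change -2.24, edgeR adjusted p = 1.04e-04). KLF4, a factor of the epidermal barrier, had -1.56 (adjusted p = 1.54e-04), and MAF had -1.63 (adjusted p = 2.49e-04). With library size only, 9 of the 13 were lower.

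The labelled cell type was checked with keratinocyte markers. KRT5, the basal keratin, had 23664 CPM and 25491 CPM in LGR5-high and 29558 CPM and 26128 CPM in LGR5-negative and was not called, and KRT14 was not analysed here. KRT15, a keratin of basal and bulge cells, had a log2 fold change of 0.76 and was not called (edgeR adjusted p = 0.187), but was called with the pig as a replicate block (0.73, adjusted p = 2.13e-06). KRT1 and KRT10 of the suprabasal layers were lower, with log2 fold changes of -3.56 and -3.44. DSG3 was higher (0.87) and COL17A1 lower (-0.47, lost without either LGR5-high library), and ITGB4 was lower with -0.38, a call kept in only 1 of the 4 fits without a library.

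Markers of other cells that could carry the 8 factors were present at uneven levels, from 0 counts up to 561 CPM for COL1A2 in LGR5-high of 95R. SOX9 is also made by melanocytes, and of 7 melanocyte markers 5 were lower in LGR5-high and 2 were not called. Without the LGR5-high library of 88R or that of 95R, 1 was lower. The sum of the 7 markers was 62.5 CPM and 62.6 CPM in LGR5-high, and 85.0 CPM (88R) and 261 CPM (95R) in LGR5-negative. MITF and DCT, the 2 markers not called, made up most of the LGR5-high sums. MITF had 25.2 CPM and 29.7 CPM in LGR5-high, against 21.6 CPM and 23.0 CPM in LGR5-negative. DCT had 25.5 CPM and 24.0 CPM in LGR5-high, against 21.3 CPM (88R) and 77.8 CPM (95R) in LGR5-negative. PMEL, TYR and TYRP1 were highest in the LGR5-negative library of 95R. TYRP1 had 12 and 17 counts in LGR5-high and 106 and 500 in LGR5-negative. Of 9 tested fibroblast and dermal papilla markers, 3 were higher, 5 were lower and 1 was not called. All 12 listed markers, tested or not, summed to 744 CPM and 1022 CPM in LGR5-high against 414 CPM and 257 CPM in LGR5-negative. COL1A1 (142 CPM and 331 CPM) and COL1A2 made up most of the LGR5-high sums. The higher ones were COL1A1, COL1A2 and FBN1, with COL1A2 at 497 CPM and 561 CPM in LGR5-high and 57.7 CPM and 24.0 CPM in LGR5-negative. COL1A1 had a log2 fold change of 1.85, and its call was lost with DESeq2 (adjusted p = 0.0671), without the LGR5-negative library of 95R and without the LGR5-high library of 95R (1.12, edgeR adjusted p = 0.180). COL3A1 and DPT were lower, with log2 fold changes of -3.09 and -2.15. The defining fibroblast gene PDGFRA had 4 and 3 counts in LGR5-high and 21 and 21 in LGR5-negative, LUM had 5 and 0 against 47 and 31, and SOX2, which marks dermal papilla, had 3 and 5 counts against 0 and 0. Of 8 tested Schwann cell and smooth muscle markers, 5 were higher, 2 lower and 1 not called. The 10 listed markers summed to 489 CPM and 411 CPM in LGR5-high and to 396 CPM and 378 CPM in LGR5-negative. SMTN and CNN1 rose with 2.46 and 3.70 on the log2 scale, MBP and ERBB3 fell with -2.24 and -0.81, and DES, the defining muscle gene, had between 0 and 2 counts. The part of melanocytes, fibroblasts, muscle cells or Schwann cells in the levels of the 8 factors was not tested.

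**Figure D4:**
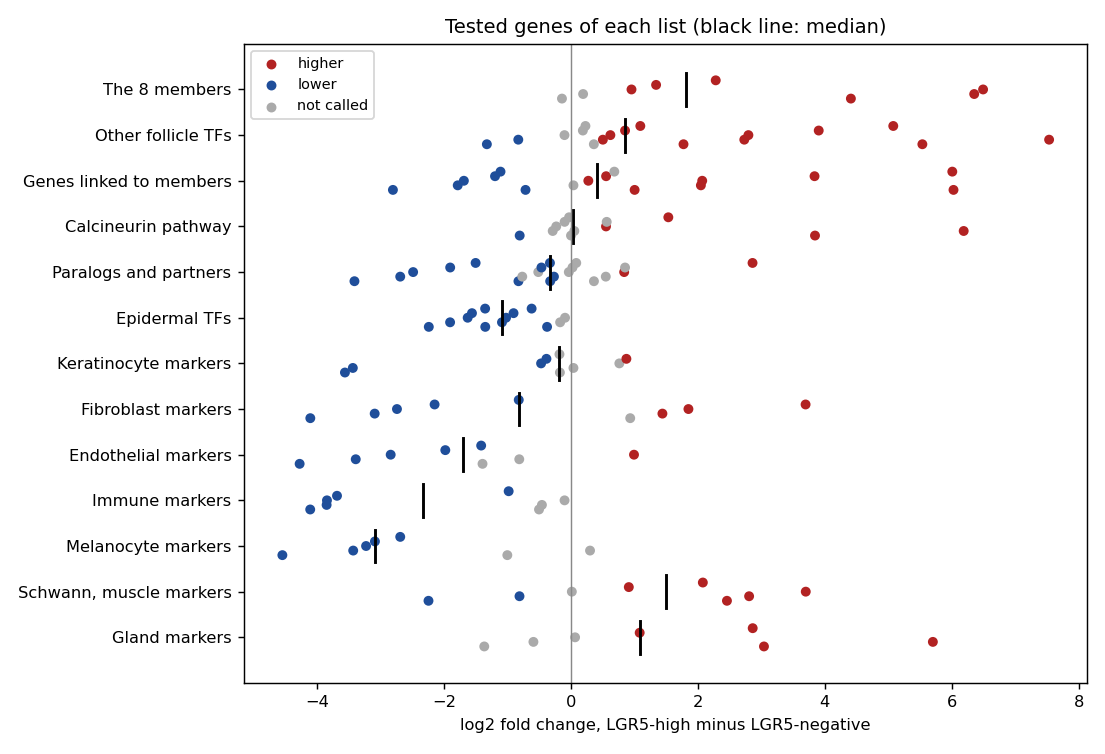
Log2 fold change (LGR5-high minus LGR5-negative) of each tested gene of the 13 lists, with the median of each list as a black line, called genes in red (higher) and blue (lower), and other genes in grey. The 8 members and the other follicle factors extend to the right, and 11 of the 13 epidermal factors are blue.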

How the data were processed

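Poly(A) RNA-seq of LGR5-high and LGR5-negative epidermal cells from 2 pigs was analysed. The deposited file holds the authors' raw counts, 1 row per gene symbol and without normalization. The submitters' processing notes name Trimmomatic 0.36, STAR 2.5.2b and featureCounts of Subread 1.5.2, while genome build, annotation and strand setting are not given in the sources used here. Reads shared by paralogs or overlapping genes may have been divided in a way that cannot be checked, and no sequences or gene lengths were used, so levels are compared within a gene only. Between 0.360% and 0.626% of counts per library lacked a gene name and were left out.

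The populations were compared by edgeR 4.0.16 under R 4.3.3 (filterByExpr with a minimum count of 10, TMM, glmQLFTest with population as the only term, two-sided, Benjamini-Hochberg adjustment over all tested genes, threshold 0.05). Fold changes within a pig used a prior count of 2. A floor of 3 counts corresponded to 0.0873 to 0.105 CPM, and intervals on counts cover counting error only. Libraries of a pig share the animal, and their deviations from the population means correlated at 0.370, so that the pig was used as a replicate block in an alternative. Other alternatives used DESeq2 1.42.0, limma-voom (limma 3.58.1), other scalings and filters, the test named in the study's methods (Student's t-test, here applied to log2 of CPM + 1), Bonferroni adjustment, and each library left out. The scripts were tested on simulated data.

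The members and lists were chosen with earlier results of these data known. All members, the called paralogs and, of each other list, the 4 called genes with the smallest p were to be named, with defining markers near 0. A gene that this rule names is not reported here. Further list genes were named after their values had been seen, and no list was tested as a set. Libraries of 1 population differed by more than counting noise, and the 2 pigs are the only replicates.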

Additional observations from a re-analysis of the deposited data

How the results depend on the processing

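TBX1, LHX2 and SOX9 were called higher in all 15 alternatives, with log2 fold changes between 6.28 and 6.72, between 6.05 and 6.63, and between 4.23 and 4.63, and with adjusted p-values of at most 0.0375, 0.0427 and 0.0473. RUNX1, FOXC1 and NFIB were called in 13 of 15, and NFATC1 and NFIX in 0. Student's t-test on log2 CPM left 3 members higher, with 2.20 for RUNX1, 1.32 for FOXC1 and 0.95 for NFIB (adjusted p = 0.0718, 0.0523 and 0.0722), and 544 genes higher and 502 lower in all. Bonferroni adjustment in edgeR also left 3 members, with 2.28, 1.34 and 0.95 for RUNX1, FOXC1 and NFIB (adjusted p = 0.594, 0.207 and 1.0), and 194 and 130 genes. With library size only NFIX had 0.083, and 5473 genes were higher and 2326 lower, so that 70.2% of the called genes were higher, against 50.9% of the 3632 and 3508 genes with TMM; the median of all tested genes was then 0.24 in place of 0.015. Without 1 library each, between 2292 and 3140 genes were higher and between 2164 and 2925 lower, in fits with fewer samples, and all 6 member calls were kept. The replicate block by pig gave 4562 higher and 4342 lower genes and changed no call of a member. Of 94 called genes on the other lists, 0 lost the call with the replicate block and 11 did with library size only. The block added 9 calls: KRT15, RCAN1, MITF (0.30, adjusted p = 0.0411), and, lower, PECAM1, TBX6, DCT, FABP7, DYRK1A and PPP3CC (adjusted p between 0.00178 and 0.0428). RCAN2 and TBX18 had 10 or fewer counts in LGR5-negative libraries, and FOXE1 had 16 and 9, which limits the precision of their fold changes. The causes of these shifts were not tested.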

Other observations

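The protein-coding genes on either side of each factor gene were read from the order of genes in the RefSeq annotation of Sscrofa11.1, in which all 8 symbols were found. This reading was added after the members' values had been seen. Of 16 flanking genes 14 were tested. Of these 6 were higher in LGR5-high, 1 was lower and 7 were not called, beside 22.7% higher and 22.0% lower among all genes. Joint regulation of neighbouring genes was not tested. DENND1A and NEK6, on the 2 sides of LHX2, were both higher, with log2 fold changes of 1.01 and 2.01 (edgeR adjusted p = 7.06e-04 and 0.00229). GNB1L, next to TBX1, averaged 84.7 CPM over the LGR5-high libraries and 20.2 CPM over the others (log2 fold change 2.06, edgeR adjusted p = 7.65e-05), and GP1BB on the other side lay between 2 and 7 counts. MPDZ next to NFIB rose by 2.15 (adjusted p = 3.76e-04), more than NFIB itself. LOC102165318 next to SOX9 and LOC110261695 next to FOXC1 were higher, with 2.46 (adjusted p = 3.83e-04) and 1.33 (adjusted p = 0.0133). KCNJ2 on the other side of SOX9 (0.26), CLIC6 and SETD4 next to RUNX1 (-0.57 and -0.18), and CTDP1 and ATP9B next to NFATC1 (-0.26 and -0.31) were not called, and GMDS on the other side of FOXC1 was lower with -0.42 (adjusted p = 0.0123). LYL1, the only annotated gene that overlaps a member, lies with NFIX and had between 42 and 75 counts, beside 8456 to 9951 counts for NFIX.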
